A study of Mus musculus with 2 samples.

Results

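The cells described are 149 stromal cells of the fetal mouse femur that the study listed as subcluster 6 of its bone marrow stromal cells (BMSCs) and named eBMSC-2. They were taken from the WT library by barcode. The study's list held 1649 BMSCs of this library, so eBMSC-2 made up 9.04% of them (95% Clopper-Pearson interval 7.70 to 10.5%), and 2.48% of the 5998 cell barcodes in the library. The other 1500 BMSCs of the list, in 5 further subclusters, served as the comparison. The series holds 2 libraries of lineage-depleted femoral bone marrow cells at embryonic day E18.5, made with the BD Rhapsody whole-transcriptome kit, which counts molecules by unique molecular identifiers (UMIs) at the 3′ end of transcripts. One came from WT embryos and the other from Bmx-CreER Wls embryos, both of strain C57BL/6, with 1 library per genotype. In the Bmx-CreER Wls embryos a tamoxifen-inducible Cre recombinase, driven by the Bmx promoter, which is active in arterial endothelial cells (ECs), removes a floxed part of Wls, the gene of the carrier protein that Wnt ligands need for secretion. The WT library held 22708005 UMIs and the Bmx-CreER Wls library 24704991 UMIs in 6825 barcodes. The labels do not say how many embryos each library pools. With 1 library per genotype there are no replicates, every interval covers counting error only, and no test was made.

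Stromal cells of fetal bone build the matrix of the marrow cavity and of the tissues around it, and in the adult some of them supply the signals that keep blood stem cells. The same limb mesenchyme also gives rise to cartilage, bone, tendon and the lining of the joint. Sparcl1, a secreted glycoprotein related to osteonectin, is known from vessel walls and stroma, and Pdgfra, a receptor for platelet-derived growth factors, marks mesenchymal cells in many tissues.

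All 149 eBMSC-2 barcodes were found in the count table, and all passed the study's filter on genes and mitochondrial share. Together they held 463028 UMIs, with a median of 2978 per cell (from 1016 to 5783) and a median of 1633 genes per cell. The other BMSCs held 5360240 UMIs with a median of 3248.5 per cell, so depth was close in both groups. The median mitochondrial share of eBMSC-2 cells was 4.15%, against 4.23% in the other BMSCs. Of the barcodes, 49 occurred in both libraries and 2 of these were eBMSC-2 barcodes. By doublet score, 4 eBMSC-2 cells (2.68%) and 67 other BMSCs (4.47%) lay among the 5% of barcodes with the highest Scrublet scores. All cells were kept.

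The label was checked first. Each level is the count of a gene scaled to 1000000 UMIs in its group (CPM), and ratios are given with a 95% conditional binomial interval. Sparcl1 (chromosome 5, 104079111 to 104113733, GRCm38) stood at 382 CPM in eBMSC-2, from 177 UMIs, and at 105 CPM in the other BMSCs, a ratio of 3.64 (3.06 to 4.32). Among the BMSC subclusters the next level was 189 CPM in mitotic BMSCs, followed by 127 CPM in eBMSC-1, and 0 UMIs were found in the osteolineage cells OLCs-1, where 3 counts equal 4.12 CPM. Among the BMSC subclusters Sparcl1 was thus highest in eBMSC-2. Over all listed classes it was not: ECs had 1780.5 CPM and mural cells, the contractile cells of vessel walls, had 1398 CPM. Pdgfra (chromosome 5, 75152292 to 75198215) stood at 581 CPM against 372 CPM, a ratio of 1.56 (1.37 to 1.78). Sparcl1 UMIs were found in 53.0% of eBMSC-2 cells, in 18.8% of the other BMSCs and in 1.65% of haematopoietic stem and progenitor cells (HSPCs), which should lack the gene and whose median depth was 6273 UMIs. With each cell thinned to 1000 UMIs, leaving out 30 other BMSCs and 10 HSPCs below that depth, the shares were 26.2%, 8.57% and 0.748%. Neither marker leads the profile. Of 9153 genes with at least 50 UMIs over the listed BMSCs, outside mitochondrial, haemoglobin and sex-linked marker genes, 233 had a higher ratio than Sparcl1 and 1802 a higher ratio than Pdgfra. The study defined eBMSC-2 by clustering on expression in this library among others, so these ratios and those that follow describe the cluster and test nothing.

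The 15 genes with the highest lower bound of the ratio were, in this order, Calb2, Hbegf, Clic5, Rab37, Ackr2, Rgs5, Ptger3, Apobec2, Tspan15, Gprc5a, Btc, Rgcc, Ntn4, Prg4 and Apold1. A pair of them encode ligands of the epidermal growth factor (EGF) receptor. Hbegf, which makes heparin-binding EGF-like growth factor, stood at 2985 CPM in eBMSC-2 and at 15.9 CPM in the other BMSCs, a ratio of 188 (151 to 237). Btc, the gene of betacellulin, stood at 484 CPM against 10.6 CPM, a ratio of 45.5 (33.9 to 62.0). Of all Hbegf UMIs in the WT library, eBMSC-2 held 78.1%, and of all Btc UMIs 71.1%, although eBMSC-2 cells held 2.04% of the library's UMIs. Most UMIs of both ligands in the library thus came from these few cells. Hbegf was detected in 122 eBMSC-2 cells (81.9%), in 3.67% of the other BMSCs and in 9.54% of HSPCs. After thinning the shares were 75.2%, 1.29% and 2.24%.

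After these values were seen, the whole EGF family was looked up. Of the other ligands, Egf, Epgn and Nrg1 had 0 UMIs in eBMSC-2, where 3 counts equal 6.48 CPM, and Areg, Ereg and Tgfa had 1 UMI each, with ratios of 5.79 (0.0981 to 111) for Areg and Ereg and 1.29 (0.0293 to 9.28) for Tgfa. Of all EGF family ligands 2 could be tested, Hbegf and Btc, and together the family summed to 3475 CPM against 30.8 CPM. The receptor gene Egfr stood at 134 CPM in eBMSC-2 and 67.5 CPM in the other BMSCs, a ratio of 1.98 (1.49 to 2.60). Errfi1, which encodes a feedback inhibitor of the receptor, stood at 587 CPM against 28.9 CPM, a ratio of 20.3 (16.6 to 24.9), and these were the 2 tested genes of the receptor list. The ligand pair, a receptor and its inhibitor were thus all measured in the same small group of cells.

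Clic5, which encodes a protein linking the membrane to the actin cortex, stood at 1503 CPM against 8.77 CPM in the other BMSCs, a ratio of 171 (128 to 236). It lies on chromosome 17, from 44188584 to 44280172. Tspan15, a tetraspanin that binds the membrane protease ADAM10, stood at 1086 CPM against 17.3 CPM, a ratio of 62.6 (50.1 to 79.0). It lies on chromosome 10, from 62185396 to 62231251. Both were spread widely over the cells: Tspan15 had UMIs in 128 eBMSC-2 cells (85.9%) and Clic5 in 113 (75.8%), against 0.550% and 1.65% of HSPCs. After thinning, 63.8% and 55.0% of eBMSC-2 cells remained positive, against 0% and 0.561% of HSPCs. Rab37, a GTPase of secretory vesicles, stood at 395 CPM against 2.24 CPM, a ratio of 177 (98.6 to 348). Calb2, the gene of the calcium-binding protein calretinin, had 100 UMIs in eBMSC-2 and 0 in the other BMSCs, so its level was at least 386-fold higher when the other BMSCs are set at 3 counts over the group. Calb2 came from only 21 cells, and the 15 cells with the most held 93.0% of its UMIs.

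Other leading genes were Ackr2, Ptger3, Ntn4, Gprc5a, Rgs5, Rgcc, Apold1 and Apobec2, a member of the cytidine deaminase family at 149 CPM against 1.31 CPM (114, 52.5 to 294). Ackr2, a decoy receptor that takes up inflammatory chemokines, stood at 235 CPM against 1.87 CPM, a ratio of 126 (66.1 to 271). Ptger3, a prostaglandin E2 receptor, had 53 UMIs against 4, a ratio of 153 (56.5 to 584). Ntn4, a netrin of basement membranes, stood at 546 CPM against 14.7 CPM, a ratio of 37.1 (28.7 to 48.4). Gprc5a, an orphan receptor, had a ratio of 61.6 (43.9 to 88.2). Ackr2, Ptger3, Ntn4 and Gprc5a were far lower in every other listed class, the highest of their levels outside eBMSC-2 being 48.0 CPM for Ntn4 in mural cells. Rgs5, a regulator of G-protein signalling known from pericytes, differed in this respect: it stood at 760.2 CPM in eBMSC-2 and 9.89 CPM in the other BMSCs, a ratio of 76.9 (57.5 to 105), and at 6923 CPM in mural cells. Rgcc (685 CPM in eBMSC-2) and Apold1 (92.9 CPM) were shared with ECs, where they stood at 265 and 146 CPM.

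**Figure D1:**
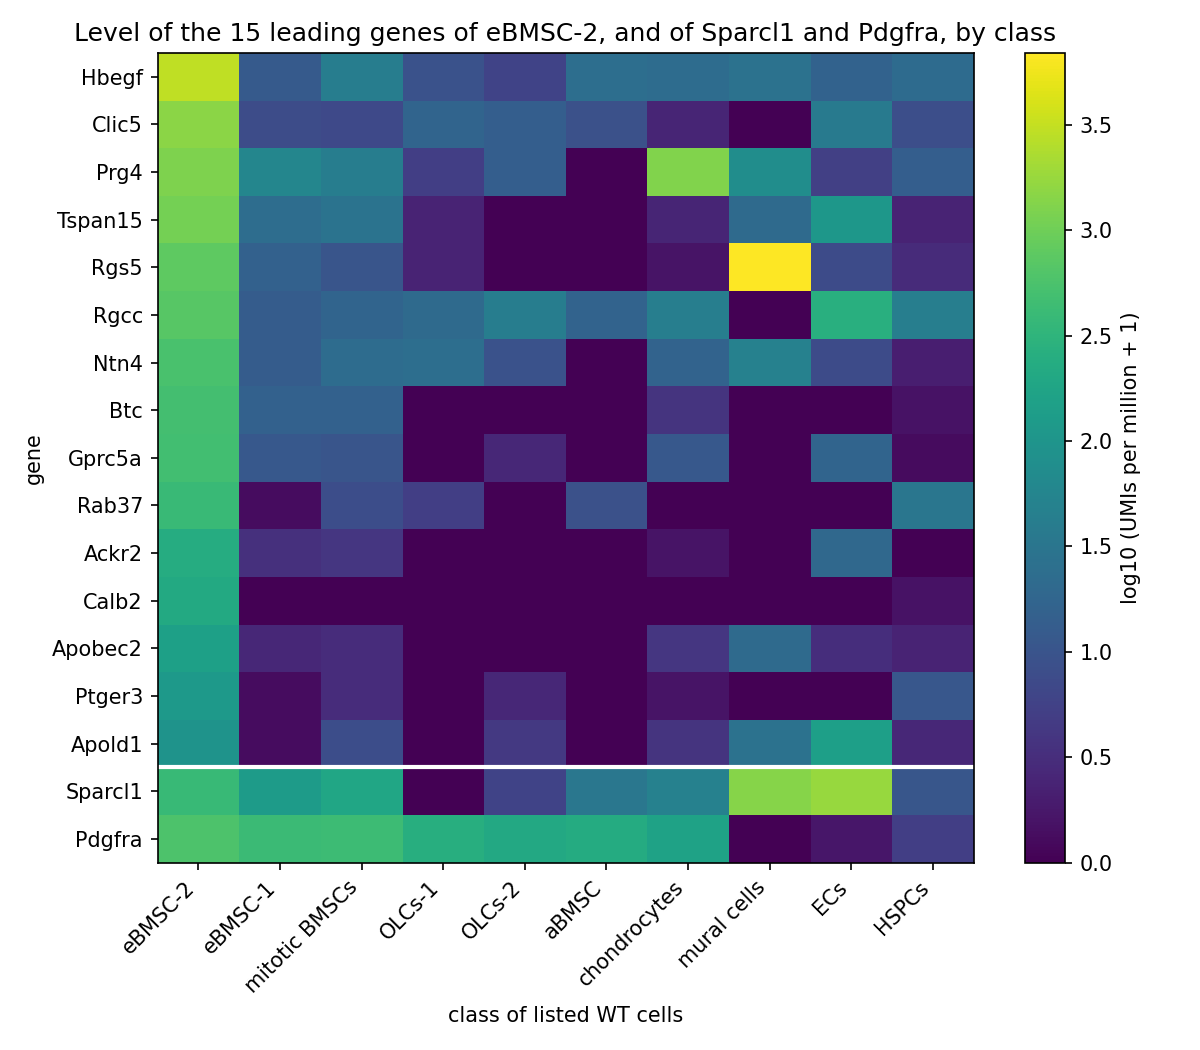
Levels of the 15 leading genes, ordered by level in eBMSC-2, and of Sparcl1 and Pdgfra below the white line, in 10 classes of listed WT cells. Colour gives log10 of CPM plus 1, and only Prg4 in chondrocytes, Rgs5 in mural cells and Apold1 in ECs exceed the eBMSC-2 level among the leading genes.

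Many of the 15 genes were seen together in 1 cell. The median eBMSC-2 cell had UMIs of 7 of them. At least 3 were present in 145 of 149 eBMSC-2 cells (97.3%, 93.3 to 99.3%), but in 26 of 1500 other BMSCs (1.73%), in 1.26% of chondrocytes and in 1.10% of HSPCs. ECs reached 11.3%. At least 5 were present in 128 eBMSC-2 cells (85.9%) and in 1 other BMSC. The gene set was chosen on these cells, so the shares describe how evenly the pattern runs through eBMSC-2 and nothing more.

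The annotated promoters of the high genes were searched for motifs of 10 transcription factor families, chosen after the values were seen. Windows of 300 bases, from 250 before to 50 after the start of a transcript, came from RefSeq (GRCm38.p6), and 6884 of 9169 tested genes had one. The AP-1 motif TGANTCA, on either strand, was in a window of 5.64% of these genes. It was in 63 of 670 genes at least 2-fold higher in eBMSC-2 (9.40%), in 11 of 85 genes at least 5-fold higher (12.9%), and in 7 of 36 genes at least 10-fold higher (19.4%). Genes at least 2-fold lower had it in 6.11% of cases. The groups are nested and end in few genes. Over all 32851 promoter windows the share was 7.81%. Of the other motifs, the cAMP response element TGACGTCA was in 3.83% of tested genes. It was in 4.63%, 5.88% and 5.56% of those at least 2-fold, 5-fold and 10-fold higher. TGTTTAC (forkhead) was in 2.89%, 3.58%, 4.71% and 2.78% of these 4 groups, and TGTGGT (RUNX) in 13.6%, 15.5%, 14.1% and 16.7%. Shares also rose stepwise for NFAT, TEAD and EGR. Of the 36 genes at least 10-fold higher, 14 had the NFAT, 8 the TEAD and 1 the EGR motif. For EGR the group at least 5-fold higher had 2 of 85 genes, too few to show a trend. GGAAAA (NFAT) was in 24.3% of tested genes, 24.8% of those at least 2-fold higher, 34.1% of those at least 5-fold higher and 38.9% of those at least 10-fold higher. ACAAT (SOX) was in 22.4% and 33.3%, but in 20.1% of genes at least 2-fold higher and 23.3% of those 2-fold lower. GGAATG (TEAD) was in 14.0%, 16.1%, 20% and 22.2% of these 4 groups, and in 16.9% of genes 2-fold lower. GCGTGGGCG (EGR) was in 1.496%, 2.09%, 2.35% and 2.78%, the SRF CArG box in 1.66%, 2.54%, 1.18% and 0%, and the retinoid DR5 element in 0% of each. A match describes letters, not binding. Of the 15 leading genes 10 had a window and Tspan15 alone among them held the AP-1 motif. The windows of Tspan15, Fgl2 and Procr are printed 5′ to 3′ on the strand of the gene, as examples of the 7 genes, with the motif in capitals, 12, 16 and 154 bases before the start. Fgl2, a secreted fibrinogen-like protein, stood at 112 CPM against 6.72 CPM (ratio 16.7) and Procr, the protein C receptor, at 209 CPM against 20.1 CPM (ratio 10.4). The windows span chr10:62231169-62231468 on the minus strand for Tspan15, chr5:21372423-21372722 on the plus strand for Fgl2 and chr2:155750967-155751266 on the plus strand for Procr.
Tspan15: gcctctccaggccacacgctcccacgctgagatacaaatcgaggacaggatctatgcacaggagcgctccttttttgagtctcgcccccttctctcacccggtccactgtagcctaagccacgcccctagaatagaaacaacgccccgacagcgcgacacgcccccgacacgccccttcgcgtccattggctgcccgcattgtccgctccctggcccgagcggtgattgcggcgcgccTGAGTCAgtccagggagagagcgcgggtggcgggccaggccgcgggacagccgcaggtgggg
Fgl2: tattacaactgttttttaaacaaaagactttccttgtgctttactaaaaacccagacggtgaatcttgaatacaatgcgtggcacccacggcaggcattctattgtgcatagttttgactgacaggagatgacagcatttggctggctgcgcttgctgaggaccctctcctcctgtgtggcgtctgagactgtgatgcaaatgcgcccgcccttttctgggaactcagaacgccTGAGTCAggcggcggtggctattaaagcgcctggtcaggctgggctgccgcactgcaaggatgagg
Procr: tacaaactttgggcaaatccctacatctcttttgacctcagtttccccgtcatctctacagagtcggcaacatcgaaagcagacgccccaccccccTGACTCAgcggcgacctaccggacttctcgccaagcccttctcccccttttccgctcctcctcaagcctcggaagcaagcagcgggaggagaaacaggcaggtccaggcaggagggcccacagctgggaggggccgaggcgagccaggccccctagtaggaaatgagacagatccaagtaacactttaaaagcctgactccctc

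**Figure D2:**
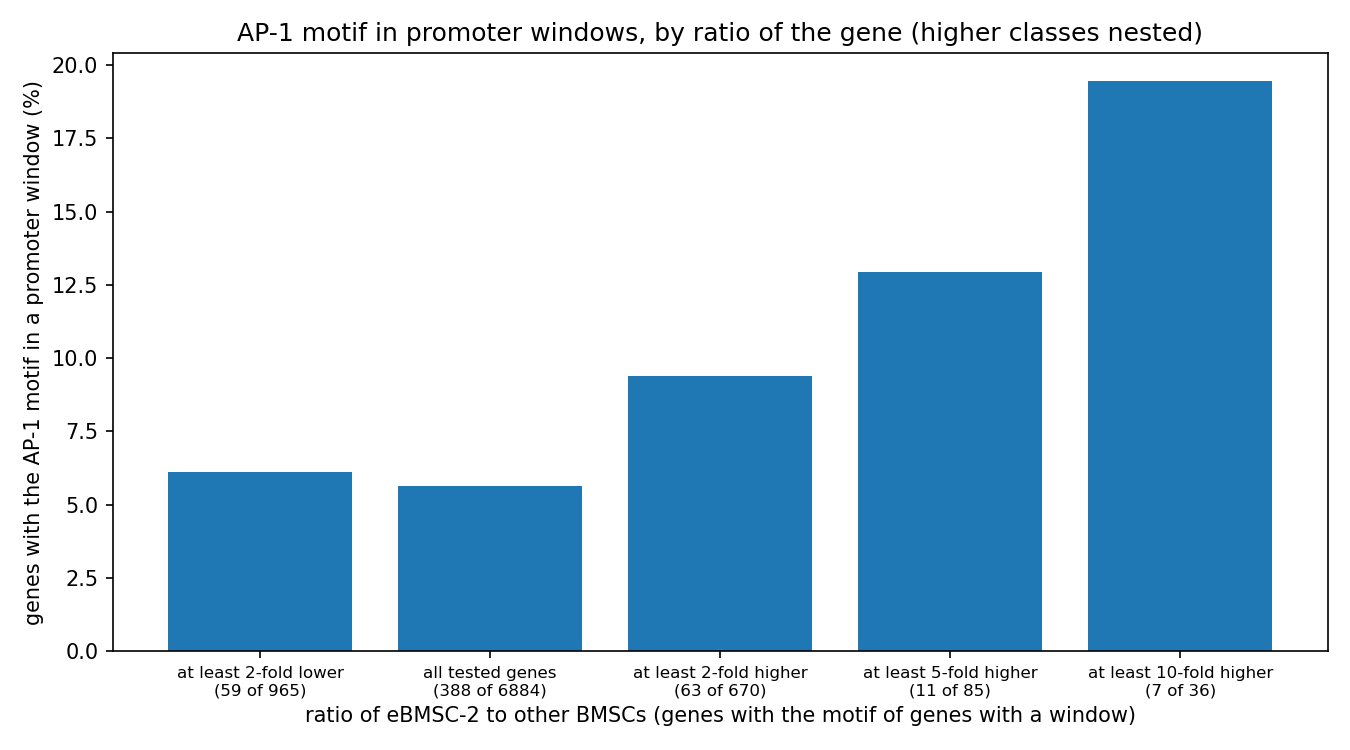
Percent of genes with the AP-1 motif in at least 1 promoter window, for genes grouped by their ratio of eBMSC-2 to other BMSCs. The groups of higher genes are nested, and the share goes from 5.64% over all tested genes to 19.4% over those at least 10-fold higher.

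Gene lists gave the wider picture. Of 9169 genes with at least 50 UMIs over the listed BMSCs, 9.87% were at least 2-fold higher in eBMSC-2 and 14.4% at least 2-fold lower, and the median ratio was 1.03. Of the lower genes 242 had 0 UMIs in eBMSC-2, and with these set to 3 counts 13.6% of genes were at least 2-fold lower. Of the 10 genes of the synovial and joint surface list, 8 were at least 2-fold higher and 0 lower, with a median ratio of 5.49. The summed level was 5540 CPM in eBMSC-2 and 526 CPM in the other BMSCs, a ratio of 10.5 (9.99 to 11.1). Clic5, its most abundant gene, held 27.1% of these UMIs, and without it the ratio was 7.81. The list summed to 2060.3 CPM in chondrocytes, taken as 1 class, and to 95.9 CPM in HSPCs. The sum in eBMSC-2 was the highest of the classes compared, but chondrocytes of the joint surface were not compared on their own.

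Within this list Prg4, the gene of the joint lubricant lubricin, stood at 1244 CPM in eBMSC-2, 40.5 CPM in the other BMSCs and 1318 CPM in chondrocytes. Its ratio to the other BMSCs was 30.7 (26.2 to 36.1), and 46.7 without the 5% of barcodes with the highest Scrublet scores, an alternative added after the values were seen. Creb5, a transcription factor of the joint surface, stood at 624 CPM against 118 CPM (5.31, 4.60 to 6.11), and Cd55, a complement regulator of synovial lining cells, at 654 CPM against 146 CPM (4.50, 3.93 to 5.14). The factors of joint formation were low in count: the growth factor gene Gdf5 had 37 UMIs and a ratio of 8.40 (5.35 to 13.1), and the transcription factor gene Erg 23 UMIs and a ratio of 5.67 (3.28 to 9.52). Cilp, a cartilage matrix protein, had a ratio of 3.09, but 97.8% of its UMIs came from 15 cells. Has2, a hyaluronan synthase, had a ratio of 1.70 (1.12 to 2.51), and the protease gene Htra1 was lower, at 0.530 (0.316 to 0.838). The list was therefore high as a group, but carried by Clic5, Prg4, Tspan15, Cd55 and Creb5.

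Hyaluronan, the polymer of joint fluid, was followed through a list added after the values were seen. Of its 8 tested genes 5 were at least 2-fold higher and 1 lower, with a median of 2.28. Has1, another hyaluronan synthase, stood at 369 CPM against 27.2 CPM, a ratio of 13.6 (10.8 to 17.0). Ugdh, which makes a sugar precursor of hyaluronan, stood at 838 CPM against 279.7 CPM, a ratio of 2.996 (2.67 to 3.35), and its receptor gene Cd44 at 1101 CPM against 418 CPM, a ratio of 2.64 (2.39 to 2.90). The 1 lower gene was Hmmr, another hyaluronan receptor that is also high in dividing cells, with 1 UMI against 87.3 CPM (0.0247, 0.000625 to 0.138). In the prostaglandin list, also added later, 3 of 5 tested genes were higher and 2 lower, or 1 with genes at 0 set to 3 counts, with a median of 2.77. Ptgs1, a cyclooxygenase, stood at 298 CPM against 41.0 CPM (7.26, 5.83 to 9.02), while the inducible cyclooxygenase Ptgs2 had 0 UMIs in eBMSC-2 and stood at 10.1 CPM in the other BMSCs, at least 1.55-fold lower by the same floor of 3 counts. Of 9 tested retinoid genes, a list chosen in the same way, 1 was higher and 5 lower, with a median of 0.437. The higher one was Aldh1a3, a retinoic acid synthase, at 322 CPM against 10.3 CPM (31.4, 22.9 to 43.5).

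**Figure D3:**
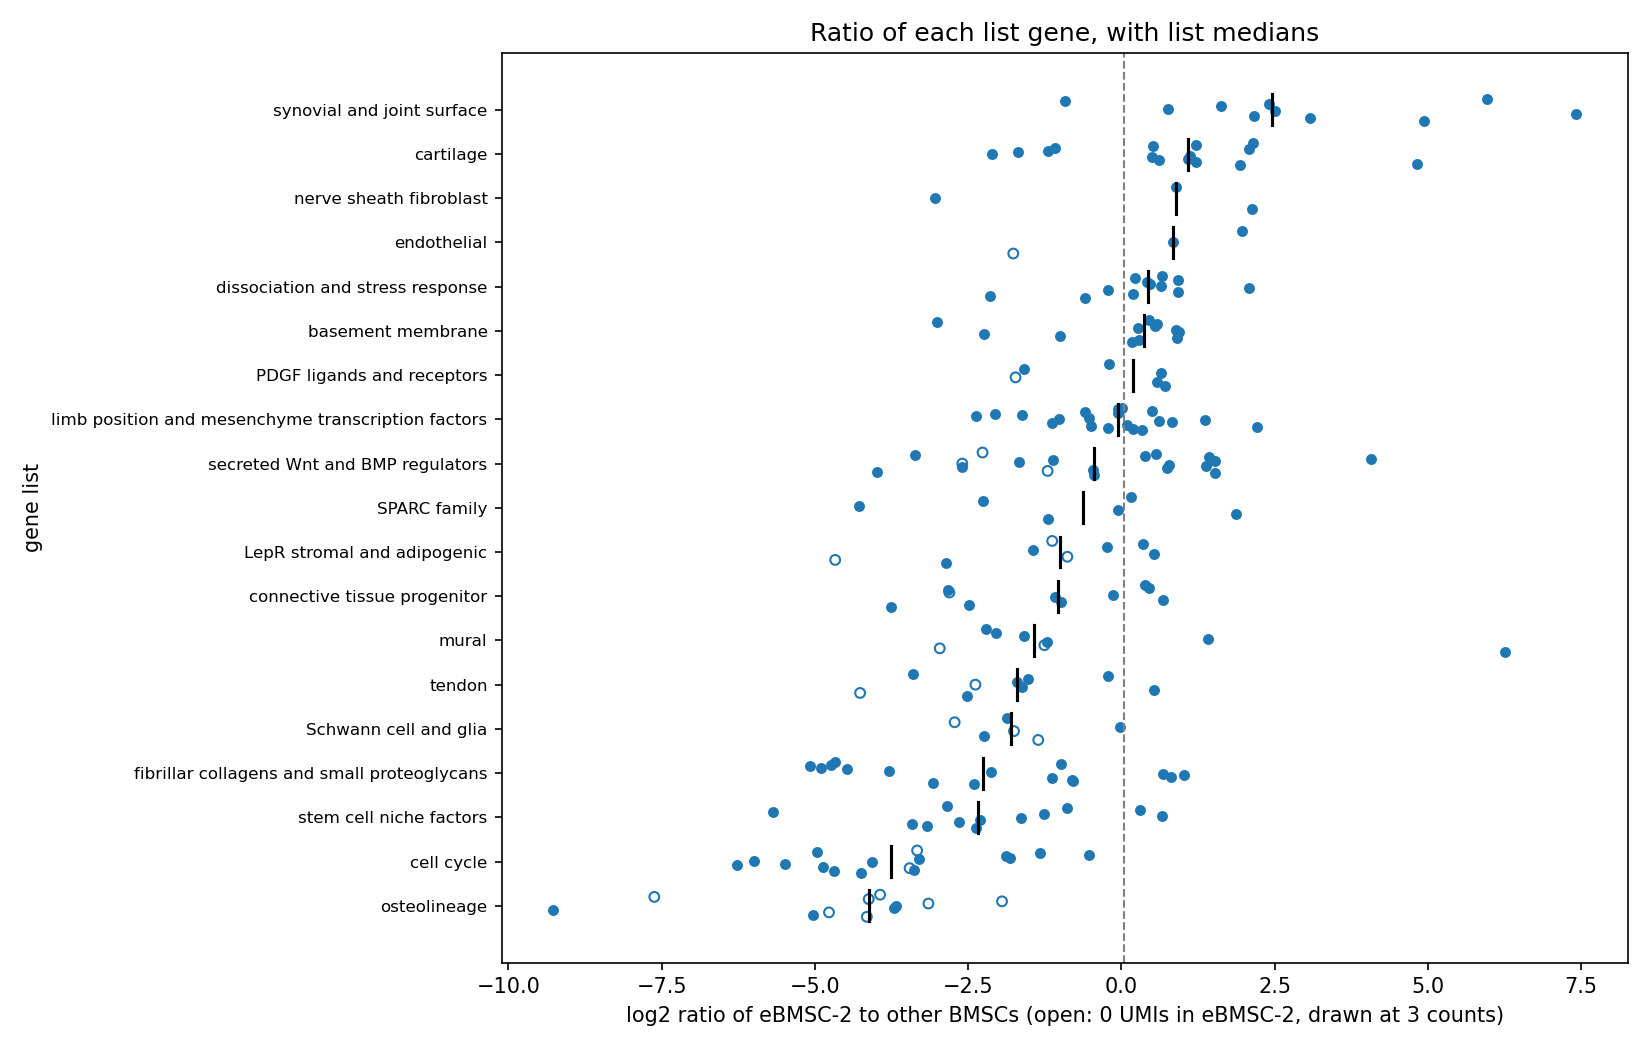
Log2 ratio of eBMSC-2 to other BMSCs for each tested gene of each list with at least 3 tested genes, with the list median as a black bar and the median of all tested genes as a dashed line. Open circles have 0 UMIs in eBMSC-2 and are drawn at 3 counts, and the medians lie highest for the synovial and joint surface list and lowest for the osteolineage list.

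Cartilage genes moved in both directions. Of 15 tested genes of the cartilage list 8 were at least 2-fold higher and 4 lower, with a median ratio of 2.12. Sox5, a transcription factor of chondrocyte formation, stood at 616 CPM in eBMSC-2, 21.8 CPM in the other BMSCs and 202 CPM in chondrocytes, a ratio of 28.2 (22.7 to 35.3) to the other BMSCs. It was found in 114 eBMSC-2 cells (76.5%), in 5.93% of the other BMSCs and in 2.20% of HSPCs, and after thinning in 42.3%, 2.18% and 0.374%. Sox9, the main regulator of cartilage fate, stood at 354 CPM against 92.7 CPM (3.82, 3.18 to 4.57) and at 1912 CPM in chondrocytes. The 9 cartilage matrix genes summed to 2404 CPM in eBMSC-2, 2775 CPM in the other BMSCs and 123183 CPM in chondrocytes. In eBMSC-2, 88.3% of these 1113 UMIs came from 15 cells, and without those cells the sum fell to 316 CPM. These 15 cells had the same median of 7 leading genes as the rest. Among the matrix and secreted genes that were at least 2-fold higher, Matn1 (4.25) had UMIs in 6 cells, Col9a3 (2.17) in 8 and Col9a1 (2.12) in 17, so these ratios rested on few cells. Lect1 (4.45, 3.23 to 6.06) and Hapln1 (2.33, 1.82 to 2.95), chosen after their values were seen, were spread more widely: Hapln1 was found in 24.2% of eBMSC-2 cells and 5.69% of HSPCs, and after thinning in 13.4% and 3.18%. Whether these cells carry chondrocyte RNA was not tested. Among further factors, Dlx3 stood at 460 CPM against 47.8 CPM (9.63, 7.99 to 11.6), whereas its relative Dlx5 had 2 UMIs against 304 (0.0762, 0.00918 to 0.277). In the list of SOX and DLX factors, chosen after the values were seen, 5 of 8 tested genes were higher and 2 lower, with a median of 3.07.

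The fibrous matrix was low. Of the 16 genes of fibrillar collagens and small proteoglycans, 10 were at least 2-fold lower in eBMSC-2 and 1 higher, with a median ratio of 0.209. The sum was 37158 CPM in eBMSC-2 and 119014 CPM in the other BMSCs, a ratio of 0.312 (0.308 to 0.317). Col1a1, the main bone and skin collagen, stood at 9608 CPM against 50714 CPM, a ratio of 0.189 (0.184 to 0.195). Decorin (Dcn), a small proteoglycan that binds collagen fibrils, had 21 UMIs, or 45.4 CPM, against 1009 CPM (0.0449, 0.0278 to 0.0687). Col3a1 fell less, from 13576 to 7889 CPM (0.581, 0.562 to 0.601). The collagen VI genes went the other way: Col6a2 stood at 5494 CPM against 2713 CPM (2.02, 1.94 to 2.11) and Col6a1 at 4630 CPM against 2648 CPM (1.75, 1.67 to 1.83). Lox, the enzyme that cross-links collagen, had 1 UMI in 463028, against 865 CPM in the other BMSCs, a ratio of 0.0025 (6.32e-05 to 0.0139). Transcripts of the fibrillar collagens named here and of Lox were thus lower than in the other BMSCs while those of Col6a1 and Col6a2 were higher, although Col1a1 and Col3a1 remained more abundant than either collagen VI gene. Of the 12 basement membrane genes 0 were at least 2-fold higher and 3 lower, with a median of 1.29. Nid1, a linker of laminin and collagen IV, was the most abundant at 1084 CPM against 725 CPM. Of 6 tested genes of the SPARC family, Sparcl1 was the only one at least 2-fold higher, and 3 were lower, with a median of 0.700, among them Sparc at 5455 CPM against 12534 CPM (0.435, 0.418 to 0.453).

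Among the 10 genes with the lowest upper bound of the ratio were Ibsp, Mmp13, Lox, Mmp9, Mfap4, Spp1, Alpl, Ogn and Lpl. Most of them are high in the bone-forming subclusters OLCs-1 and OLCs-2. Mmp13, a collagenase, had 0 UMIs in eBMSC-2 and stood at 1275 CPM in the other BMSCs, at least 197-fold lower with eBMSC-2 set at 3 counts over the group. Alpl, the phosphatase of mineralizing bone, had 0 UMIs against 177 CPM, at least 27.3-fold lower. Against eBMSC-1 alone, where Alpl stood at 16.1 CPM, the difference was smaller. Mfap4, Ogn and Lox were low also against eBMSC-1, where they stood at 1133, 1753 and 825 CPM, compared with 15.1, 36.7 and 2.16 CPM in eBMSC-2. Of the 11 tested osteolineage genes all 11 were at least 2-fold lower. The list had 9 UMIs in eBMSC-2, or 19.4 CPM, against 7420.4 CPM, a ratio of 0.00262 (0.0012 to 0.00497), its median ratio was 0.0574 with genes at 0 set to 3 counts, and the defining genes Runx2, Alpl, Bglap and Dmp1 were at 0. Most of the level in the comparison group came from OLCs-1 (16481 CPM) and OLCs-2 (40100.2 CPM), and eBMSC-1 stood at 64.0 CPM.

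Most signals known to support blood stem cells were also low. Of 12 tested niche factor genes 9 were at least 2-fold lower and 0 higher, with a median ratio of 0.197, and the remaining 3 were Igf2, Tgfb2 and Jag1. Cxcl12, the chemokine that retains stem cells, stood at 77.7 CPM against 698 CPM (0.111, 0.0779 to 0.155), and Kitl, the ligand of the receptor Kit, at 19.4 CPM against 100.4 CPM (0.194, 0.0881 to 0.370). The growth factors Ptn and Igf1 had ratios of 0.160 (0.124 to 0.203) and 0.321 (0.275 to 0.374), the vessel factor Angpt1 had 3 UMIs (0.0941, 0.0193 to 0.277), and the lymphoid factor Il7 had 0 UMIs against 2.98 CPM, too low to compare. Igf2, a fetal growth factor, was the second most abundant transcript of eBMSC-2, after the non-coding RNA H19. It stood at 20619 CPM against 13081 CPM, a ratio of 1.58 (1.54 to 1.61), and made up 95.6% of the list's UMIs. The summed ratio of the list was 1.21 (1.19 to 1.24), and without Igf2 it was 0.205. Of 8 tested genes of LepR stromal and adipogenic cells 5 were lower and 0 higher, with a median of 0.252, or 4 lower and a median of 0.4998 with genes at 0 set to 3 counts. This list summed to 661 CPM in eBMSC-2 and 802 CPM in the other BMSCs. Among the latter, eBMSC-1 had 684 CPM, close to eBMSC-2, and OLCs-1 had 2169 CPM. Lepr, the leptin receptor of adult marrow stroma, had 3 UMIs in 1 eBMSC-2 cell, a ratio of 0.137 (0.0281 to 0.406). Ebf1, a transcription factor shared with that lineage, was kept at 404 CPM against 278 CPM (1.45, 1.24 to 1.69).

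Markers of other cell types were followed as whole lists. Of 8 tested mural genes 2 were higher, Rgs5 and Cspg4, and 6 lower, with a median of 0.286 (0.375 with genes at 0 set to 3 counts). The list summed to 1209 CPM in eBMSC-2, 357 CPM in the other BMSCs and 17876 CPM in mural cells, and Rgs5 held 62.9% of its UMIs in eBMSC-2. The defining genes Acta2, Myh11, Kcnj8, Abcc9 and Higd1b were at 0. Abcc9, for comparison, stood at 1357 CPM in mural cells. Rgs5 was thus present without these other mural genes. Of 3 tested endothelial genes 1 was higher and 1 lower, with a median of 1.80. That list summed to 64.8 CPM, with Plvap the most abundant at 43.2 CPM, against 9930.3 CPM in ECs, and Pecam1, Cdh5, Emcn, Tek and Cldn5 were at 0. Tendon genes were mostly low: 7 of 9 tested were lower and 0 higher, with a median of 0.306, the sum was 1708 CPM against 2973 CPM, the immediate early gene Egr1 held 54.7% of it, and Scx, Tnmd and Kera were at 0. Of 6 tested Schwann cell and glia genes 5 were lower, with a median of 0.106 (0.286 with genes at 0 set to 3 counts), the sum was 49.7 CPM with S100b the most abundant, and Sox10 was at 0. Of 3 tested nerve sheath fibroblast genes 1 was higher and 1 lower, with a median of 1.85, and Osr2 held 91.5% of its 583 CPM. Of 12 muscle genes 9 were at 0, including Pax7, Myf5 and Myod1, 2 were tested, with 1 higher and 1 lower, the latter at 0 UMIs and not 2-fold lower when set to 3 counts, and Des held 86.7% of 97.2 CPM. Blood genes had 3 UMIs in all with Ptprc at 0 (ratio 0.386, 0.0781 to 1.16), macrophage genes 1 UMI, of Cd68, with Csf1r at 0 (0.276, 0.00682 to 1.62), and epithelial genes 0 UMIs, and none of these lists had a tested gene. In 10 genes of connective tissue progenitors 0 were higher and 5 lower, with a median of 0.488. Cd34, a surface sialomucin, was the most abundant at 927 CPM against 579.6 CPM (1.598, 1.44 to 1.77), Pi16 had 2 UMIs against 314 (0.0737, 0.00889 to 0.269), and Thy1 was at 0.

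Cell division was low in eBMSC-2. Of 16 cell cycle genes 15 were at least 2-fold lower, with a median ratio of 0.0458, or 0.0753 with genes at 0 set to 3 counts, and the sum was 227 CPM against 2089 CPM. The mitotic subcluster, which lies in the comparison group, had a sum of 7911 CPM, and eBMSC-1 had 576 CPM. Mki67, a marker of dividing cells, had 5 UMIs in 4 cells, a ratio of 0.0528 (0.0171 to 0.124), and against eBMSC-1, at 32.5 CPM, it was also lower at 10.8 CPM. In the mitotic subcluster Mki67 stood at 862 CPM. Among PDGF ligands and receptors, of 6 tested genes 0 were higher and 2 lower, with a median of 1.18, and Pdgfa, a ligand of the receptor, stood at 143 CPM against 86.9 CPM (1.64, 1.25 to 2.13).

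Transcription factors of limb position were close to the other BMSCs. Of 20 tested genes 2 were higher and 5 lower, with a median of 0.966. Prrx1, a factor of limb mesenchyme, stood at 248 CPM against 358 CPM (0.694, 0.570 to 0.838). Hoxd9, which patterns the proximal limb, had the highest ratio, 4.63 (2.61 to 7.92), from 20 UMIs, and Tbx5, a forelimb factor, had 58 UMIs and a ratio of 2.56 (1.89 to 3.42). Among secreted regulators of Wnt and BMP signalling 5 of 19 tested genes were higher and 8 lower, with a median of 0.733. Bmp2, a ligand that promotes cartilage and bone, stood at 523 CPM against 31.0 CPM, a ratio of 16.9 (13.8 to 20.7), and was found in 62.4% of eBMSC-2 cells, 8.53% of the other BMSCs and 9.17% of HSPCs. After thinning these shares were 39.6%, 3.40% and 2.43%. Bmp4 (2.68, 2.09 to 3.42), the Wnt antagonist gene Dkk2 (2.89, 2.23 to 3.70), Sfrp1 (2.62, 2.001 to 3.38) and Wnt4 (2.87, 1.87 to 4.28) were higher too, while Wnt5a had 3 UMIs, a ratio of 0.0627 (0.0129 to 0.184). Genes that respond to dissociation and stress did not lead: of 12 genes 1 was higher and 1 lower, with a median of 1.36. Fos stood at 935 CPM against 1407 CPM (0.664, 0.602 to 0.732), and Atf3 at 92.9 CPM against 21.8 CPM (4.25, 2.93 to 6.08).

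By whole profile, eBMSC-2 was closest to eBMSC-1. Across 12402 genes Pearson's r of log2 (CPM + 10) was 0.897 with eBMSC-1, 0.836 with mitotic BMSCs, 0.799 with chondrocytes, 0.787 with OLCs-1, 0.767 with mural cells and 0.610 with HSPCs. These correlations are over genes, which are not independent, and the classes share the library. Against eBMSC-1 alone, 9.56% of 7429 genes were at least 2-fold higher in eBMSC-2 and 9.68% lower.

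The cells varied among themselves. By the ratio of variance to mean of thinned counts, over 919 genes with a median of 1.09, Col2a1 (37.3) and H19 (22.7) varied most, followed by Prg4 (10.3). Prg4 UMIs were found in 41 of 149 cells, with a median of 7 and a maximum of 67 in those cells, and the 15 cells with the most held 82.1% of them. Clic5 and Tspan15 were even by comparison, with 37.5% and 31.6% of UMIs in their top 15 cells. The 41 cells with Prg4 had a median depth of 2896 UMIs and the 108 without it 3026.5. Of 1852 genes with at least 50 UMIs in eBMSC-2, 1.62% were at least 2-fold higher in the Prg4-positive cells and 2.54% lower. The cells were split on a readout of the same libraries, so the values are descriptions. The positive cells had more Calb2 (623 against 65.1 CPM, ratio 9.57, 5.90 to 16.1), more of the matricellular gene Ctgf (919 against 148 CPM, 6.21, 4.42 to 8.83), more Col8a1, a short-chain collagen (5.61, 3.97 to 8.03), and more Rgs5 (1566 against 462 CPM, 3.39, 2.73 to 4.21). Sparcl1 stood at 591 CPM in the positive cells and 305 CPM in the others (1.94, 1.42 to 2.64). They had less Clec3b (87.9 against 447 CPM, 0.197, 0.0961 to 0.362), Dpt (0.349, 0.201 to 0.573) and Fbn1 (0.384, 0.260 to 0.551), less Cd34 (0.526, 0.401 to 0.681), and less of the imprinted gene Dlk1 (0.392, 0.327 to 0.468). Genes outside the naming rule in this paragraph were chosen after their values were seen. The 13 other leading genes with at least 50 UMIs had ratios from 1.01 (Btc) to 9.57 (Calb2), and after Calb2 the prostaglandin receptor gene Ptger3 differed most, at 256 against 62.2 CPM (4.11, 2.30 to 7.50). Hbegf stood at 4361 and 2475 CPM, Clic5 at 2508 and 1131 CPM, Tspan15 at 1358 and 986 CPM, and Btc at 487 and 482 CPM. Of further genes, Sfrp2 (3.84, 2.26 to 6.60), Fap (2.16, 1.49 to 3.11) and Pdgfra (1.45, 1.12 to 1.87) were higher in the positive cells, while Col1a2 (0.612, 0.543 to 0.688), Col3a1 (0.642, 0.590 to 0.697) and Sparc (0.797, 0.725 to 0.875) were lower, and the intervals of Col1a1 (0.941, 0.879 to 1.01), Cd248 (0.827, 0.546 to 1.22) and Prrx1 (0.712, 0.434 to 1.13) held 1.

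**Figure D4:**
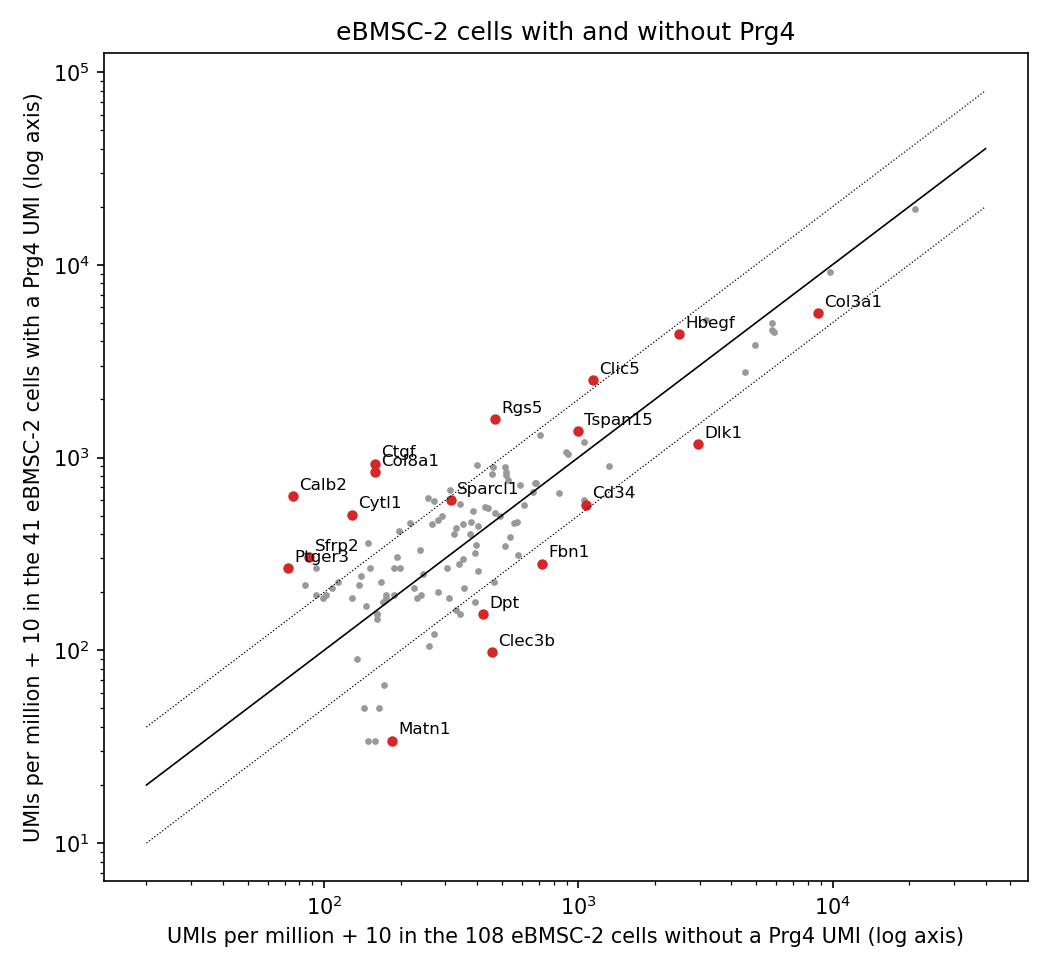
Levels of 120 genes, in CPM plus 10 on log axes, in the 41 eBMSC-2 cells with a Prg4 UMI and the 108 cells without. The solid line marks equal levels and the dotted lines 2-fold differences, with Calb2, Ctgf, Col8a1 and Rgs5 above the lines, and Clec3b, Dpt, Fbn1 and Dlk1 below.

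The Bmx-CreER Wls library was not in the study's cell list. Its cells were therefore given to the class of listed WT cells whose mean profile they matched best, without the genes of the lists. The genes used vary together with list genes, so the levels of list genes in the chosen cells are not independent of the choice and describe these cells only. On the listed WT cells, with each cell left out of its class mean, this returned 149 of 149 eBMSC-2 cells, and it also placed 35 of 940 eBMSC-1 cells, 4 of 231 mitotic BMSCs and 5 of 953 chondrocytes in eBMSC-2. Wls itself was read first as a check of the label. In cells nearest to arterial ECs it had 14 UMIs in 80 WT cells (52.8 CPM) and 2 UMIs in 68 cells of the Bmx-CreER Wls library (7.04 CPM), a ratio of 0.133 (0.0147 to 0.581). Over all EC-like cells, most of which are not arterial, it was also lower, at 41.5 against 22.1 CPM (0.532, 0.355 to 0.786). In eBMSC-2-like cells, which are not the target of Bmx-CreER, Wls stood at 281 CPM in WT and 228 CPM in the Bmx-CreER Wls library (0.811, 0.650 to 1.01). Tags that lie outside the deleted part of the gene check nothing, and counts per gene do not show where the tags lie. The label check is limited by this.

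The eBMSC-2-like cells made up 198 of 5736 WT cells (3.45%, 2.99 to 3.96%) and 226 of 6620 cells of the Bmx-CreER Wls library (3.41%, 2.99 to 3.88%), at median depths of 2876.5 and 3136.5 UMIs. Of the WT cells 149 were listed as eBMSC-2, 39 as other BMSCs and 5 as chondrocytes, and 5 were not listed. The shares of all cells lay within each other's intervals. Among BMSC-like cells the share was 11.4% in WT and 17.6% in the Bmx-CreER Wls library, where fewer cells were BMSC-like (1286 against 1741). What part of this comes from the dissection or the pooling of embryos was not tested, and genotype and library cannot be told apart. Joint clustering of both libraries gave smaller groups, of 140 WT and 139 Bmx-CreER Wls cells.

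In the Bmx-CreER Wls library, 7.42% of 8752 tested genes were at least 2-fold higher in eBMSC-2-like cells than in other BMSC-like cells and 11.1% lower. Of the 10 synovial and joint surface genes 9 were at least 2-fold higher, with a median ratio of 5.32. None of the 10 was used in the assignment. The list holds leading genes of eBMSC-2, and the cells were chosen by their likeness to eBMSC-2. High levels of these genes therefore describe the chosen cells and are no independent result. Clic5 stood at 640.2 CPM against 8.59 CPM (74.6, 52.6 to 109), Tspan15 at 826 CPM against 14.6 CPM (56.4, 43.0 to 75.1) and Prg4 at 1242 CPM against 95.7 CPM (13.0, 11.5 to 14.7). Clic5 was found in 54.4% of these eBMSC-2-like cells, whose median depth was 3136.5 UMIs, and in 1.30% of the HSPC-like cells of that library, at 6401.5 UMIs. With cells thinned to 1000 UMIs, leaving out 4 HSPC-like cells, the shares were 36.3% and 0.524%. Rgs5 (42.8, 31.9 to 58.5), Bmp2 (12.3, 10.3 to 14.8), Sox5 (11.2, 9.27 to 13.5) and Sparcl1 (2.51, 2.12 to 2.96) were higher as well. All 11 tested osteolineage genes and 14 of 16 cell cycle genes were at least 2-fold lower, and the summed ratio of fibrillar collagens and small proteoglycans was 0.402 (0.397 to 0.407). In the cartilage list 3 of 16 tested genes were at least 2-fold higher and 2 lower, with a median of 0.999. The median of 2.12 in listed WT eBMSC-2 rests on cells and a comparison group chosen in another way. These medians therefore do not compare the libraries. In WT eBMSC-2-like cells Col2a1 had a ratio of 0.691 to other BMSC-like cells and Hapln1 1.53, against 0.897 and 2.20 in the Bmx-CreER Wls library. From WT to that library, the list's median ratio in eBMSC-2-like cells was 1.77. The connective tissue progenitor list had a summed ratio of 1.36 and the Wnt and BMP regulators a median of 1.22. Listed WT eBMSC-2, with its own comparison group, had 0.783 and 0.733. Between eBMSC-2-like cells of both libraries, the connective tissue progenitor sum had a Bmx-CreER Wls to WT ratio of 0.958 (0.894 to 1.03). For the Wnt and BMP regulators the median of that ratio was 0.999.

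**Figure D5:**
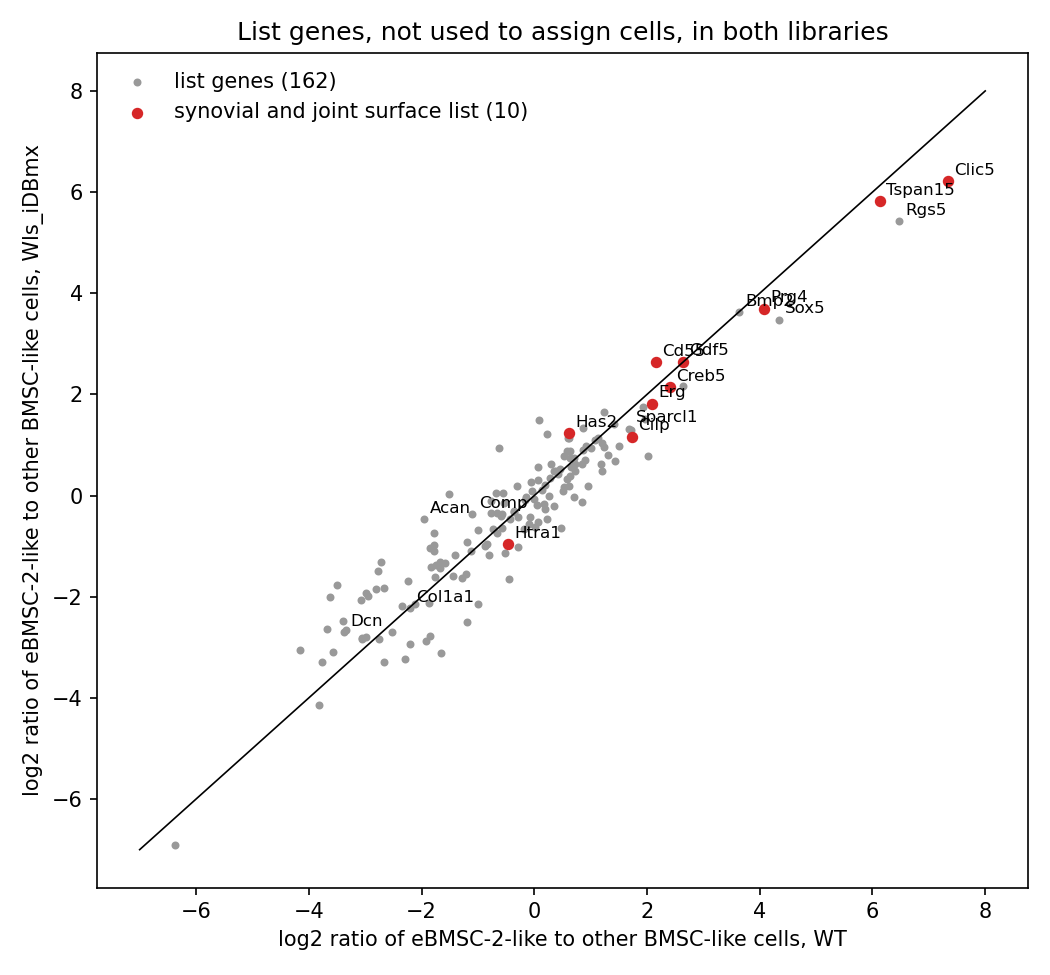
Log2 ratio of eBMSC-2-like to other BMSC-like cells in the WT library (horizontal) and in the Bmx-CreER Wls library (vertical, written Wls_iDBmx) for 162 list genes that were not used to assign cells, with the 10 synovial and joint surface genes in red. The line marks equal ratios, and Clic5, Tspan15, Rgs5, Prg4, Sox5 and Bmp2 lie far above 0 on both axes.

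Between the libraries, few genes differed 2-fold in eBMSC-2-like cells. Of 4632 genes with at least 50 UMIs, 0.95% were at least 2-fold higher in the Bmx-CreER Wls library and 0.583% lower, and the median ratio was 0.988. Sparcl1 stood at 322 CPM in WT and 288 CPM in the Bmx-CreER Wls library (0.894, 0.731 to 1.09), a difference within counting error. Pdgfra went from 523 to 401 CPM (0.767, 0.652 to 0.903). Of the synovial and joint surface list 0 of 10 genes changed 2-fold in either direction. Clic5 went from 1200 to 640.2 CPM (0.534, 0.474 to 0.601) and Creb5 from 591 to 472 CPM (0.799, 0.686 to 0.930). In the cells taken by joint clustering Clic5 was also lower (0.571, 0.505 to 0.645), the interval of Creb5 held 1 (0.891, 0.750 to 1.06), Cilp was lower (0.578, 0.403 to 0.823) and Htra1 higher (2.91, 1.604 to 5.60, from 15 and 48 UMIs). With the assigned cells the intervals of Cilp (0.870, 0.704 to 1.08) and Htra1 (1.48, 0.963 to 2.32) held 1. Tspan15 went from 900 to 826 CPM (0.918, 0.815 to 1.03) and Prg4 from 1082 to 1242 CPM (1.15, 1.04 to 1.27), but with joint clustering the interval of Prg4 held 1 (1.06, 0.944 to 1.19). Of this list, Clic5 was thus the only gene with an interval below 1 under both ways of choosing the cells.

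Some cartilage genes were higher. Of 13 tested genes of the cartilage list 3 were at least 2-fold higher in the Bmx-CreER Wls library and 0 lower, with a summed ratio of 1.604 (1.52 to 1.69). Acan, the large cartilage proteoglycan, rose from 73.3 to 251 CPM (3.43, 2.45 to 4.90), and Comp, which organizes cartilage matrix, from 30.7 to 124 CPM (4.05, 2.42 to 7.14). The other BMSC-like cells had more of these genes in that library too: Acan stood at 284 CPM in WT and 345 CPM in the Bmx-CreER Wls library, and Comp at 65.6 and 160.4 CPM. Col2a1, the main collagen of cartilage, went from 1070.1 to 1818 CPM (1.70, 1.54 to 1.87) and was found in 46.9% of the eBMSC-2-like and 41.7% of the HSPC-like cells of that library, which should lack it. After thinning these shares were 27.4% and 13.4%, so much of the share of cells with Col2a1 was at the level of background. For Comp the shares were 7.96% and 6.22%, or 3.98% and 1.31% after thinning, and for Acan 22.1% and 9.33%, or 15.9% and 2.88%. The part that chondrocytes among the eBMSC-2-like cells play was not tested. In the basement membrane list 0 of 10 tested genes changed 2-fold, and Col4a1, a collagen IV chain, went from 593 to 385 CPM (0.649, 0.553 to 0.762). Igf2 went from 21008 to 25360.2 CPM (1.21, 1.18 to 1.24). Of 105 list genes with at least 50 UMIs under both ways of choosing the cells, 11 had an interval below 1 in both, Clic5, Col4a1 and Pdgfra among them, and 20 an interval above 1, among them Acan, Comp, Col2a1, Sox9 and Igf2. The share of all genes past this interval rule is not given here. These counts are therefore no result about the list genes, and the rule is looser than a 2-fold change. Genes of the dissociation and stress list were also among the 20: Fosb (2.52, 1.76 to 3.67), Atf3 (1.54, 1.10 to 2.18) and Fos (1.12, 1.01 to 1.25), and Ier2 of that list was among the 11 (0.722, 0.578 to 0.902). Whether handling differed between the libraries was not tested. With 1 library per genotype these differences cannot be told apart from differences between libraries.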

How the data were processed

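The values are unnormalized UMI counts as deposited by the authors, 1 table of genes by barcodes for each library. Per the submitters' processing notes, reads went through bcl2fastq 2.19.1.403, UMI-tools 1.0.1, STAR 2.7.1a (mm10) and featureCounts 1.6.4 of Subread. UMIs were summed over the cells of a class and divided by the class total (CPM), with Python 3.11.15, scipy 1.17.1 and scanpy 1.11.5. Shares have Clopper-Pearson and ratios conditional binomial 95% intervals. Genes needed 50 UMIs over the groups compared, and called means a ratio of at least 2. Assignment used Pearson's r of log-normalized counts (scale factor 10000) over variable genes. Thinning drew 1000 UMIs per cell. Members and lists were chosen with earlier results of these data known. Named were the 15 genes with the highest lower bound and 10 with the lowest upper bound, from each list the 4 with the most UMIs and the highest and lowest ratio, and genes the study names for BMSCs; others were chosen after their values were seen. Intervals were tested on simulated Poisson counts of pooled cells, which is the model they assume. That test does not cover the spread between cells. Gene positions came from GENCODE M21. Alternatives varied scaling, cell filters, doublets, depth, comparison group and assignment.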

Additional observations from a re-analysis of the deposited data

How the results depend on the processing

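Of 35 alternatives chosen at the start, 25 left the value inside its counting interval, or a percent of genes within 1.5 times, 10 moved it and 0 reversed it. Against eBMSC-1 alone the Sparcl1 ratio was 3.01. Without mitotic BMSCs in the comparison it was 4.43 and the collagen and proteoglycan ratio 0.294. With the other subclusters weighted equally, Sparcl1 was 5.41, Pdgfra 1.88 and the collagens 0.278. With cells thinned to 1000 UMIs, Pdgfra was 1.37 and the collagens 0.329, and as a mean over cells the collagens were 0.332. Joint clustering gave an eBMSC-2-like share of 2.10% of the Bmx-CreER Wls library. The cause was not tested. Of 6 alternatives added after seeing the data, 5 stayed inside the interval, and without the 5% of barcodes with the highest Scrublet scores the Prg4 ratio to other BMSCs was 46.7.

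No paired analysis was possible because each genotype had 1 library and the labels link no samples. The 463028 UMIs of eBMSC-2 set the limit: 3 counts equal 6.48 CPM, so a gene below that level cannot be told from 0. Scrublet called 6 of 5998 WT barcodes and 0 of 6825 of the other library, so its threshold separated no group of doublets. The study's list of all cells was available only in part, with 1999 rows at E18.5. That part held 54 of the eBMSC-2 barcodes, all in its BMSC class. The chondrocyte and mural cell classes were taken from the same part. The recomputed UMI sum equalled the listed one for 908 of 1649 BMSCs, with a largest difference of 13.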

Other observations

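Among eBMSC-2 cells with UMIs of either Xist or Y-linked genes but not both, 24 had Xist and 50 had Y-linked genes, a Xist share of 32.4% (22.005 to 44.3%). Among the other BMSCs the numbers were 159 and 651, a share of 19.6% (16.9 to 22.5%). The library thus pooled cells of both sexes. With each cell thinned to 1000 UMIs, eBMSC-2 cells had a median of 701 genes and the other BMSCs 646. Ribosomal protein genes took 4.70% of the UMIs of eBMSC-2 and 6.21% of those of the other BMSCs.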
